A study of Mus musculus with 3 samples.

Results

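Accessible chromatin around 8 genes of anterior neural transcription factors (Otx2, Hesx1, Six3, Rax, Lhx2, Pax6, Pou3f1 and Pou3f2) was compared between 3 peak lists from ATAC-seq, an assay that reads open DNA by where a transposase can insert sequencing adapters. The genes were given by name, and every deposited peak that overlapped a gene body or the 50 kb on either side of it (GENCODE M21, mm10) was taken as theirs. These 8 windows held 94 of 129843 peaks in SOX2-ON, 89 of 131520 in SOX2-OFF and 96 of 130348 in CEpiLC. Joined where they overlapped, the peaks formed 119 of 219473 regions. All samples came from mouse embryonic stem cells of the HM1 TetON line (strain 129), which carries a doxycycline-dependent transactivator at Rosa26, and were taken over 72 h towards a caudal epiblast-like state in N2B27 medium. The medium held 10 ng/ml bFGF and also 5 µM LGK974, an inhibitor of WNT secretion. CHIR99021, which activates WNT signalling, was added to all of them after day 2. The CEpiLC sample, which had no doxycycline during differentiation, was this line itself, labelled wild type. SOX2-ON and SOX2-OFF came from a single engineered Sox2-/- line derived from it that carried a doxycycline-inducible SOX2 transgene at the Hprt locus. This line was kept in 1 µg/ml doxycycline before differentiation, and the drug was then maintained in SOX2-ON and withdrawn in SOX2-OFF. Clones of the line had been screened for loss of SOX2 after withdrawal, and the study regards some residual protein as probable. There was 1 sample in each group, so no difference between groups could be tested and every value below describes a library. Genotype and library cannot be told apart in any comparison with CEpiLC. SOX2-ON also differs from CEpiLC in doxycycline, which cannot be told apart from these either.

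These factors act where the head and forebrain are laid down. Otx2 is expressed through the epiblast and is then restricted to the future forebrain and midbrain, where it is needed for head formation, and Hesx1 is a repressor of the early forebrain and pituitary. Six3, Rax, Lhx2 and Pax6 specify the forebrain and the eye field, and Six3 is known for repressing WNT signalling there. Pou3f1 and Pou3f2 (Oct6 and Brn2) are POU factors of the epiblast and neural progenitors that can pair with SOX2 on DNA. SOX2 itself maintains pluripotent and neural cells, whereas WNT signalling promotes caudal identity.

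The sequences below, read from GRCm38 on the plus strand, are the middle 200 bp of the strongest peak in 2 of the regions on which the account turns. The first is a region of the Hesx1 window that had a strong peak in SOX2-OFF and CEpiLC and no peak in SOX2-ON. The second is the region upstream of Otx2 that ranked far higher in SOX2-ON than in the other lists. Capitals mark the SOX words ACAAAG and its reverse complement CTTTGT, or ACAATG and its reverse complement. The second sequence held 1 such word and the first held none in this stretch. Regions picked by rank difference were printed only if they carried a SOX word near the centre. The word in the second sequence was thus fixed by that choice, and its contrast with the first is not a result.
Hesx1 window, chr14:26956384-26956583: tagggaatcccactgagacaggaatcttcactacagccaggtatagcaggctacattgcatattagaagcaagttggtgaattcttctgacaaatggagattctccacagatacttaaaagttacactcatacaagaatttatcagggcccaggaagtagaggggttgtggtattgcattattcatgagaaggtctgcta
Otx2 window, chr14:48701203-48701402: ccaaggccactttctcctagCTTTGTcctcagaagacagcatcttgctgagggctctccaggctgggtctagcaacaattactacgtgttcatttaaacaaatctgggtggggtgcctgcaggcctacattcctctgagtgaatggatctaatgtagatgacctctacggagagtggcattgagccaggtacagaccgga

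Each list has its own scale. The 20000th strongest peak reached a −log10 p of 26.4 (SOX2-ON), 21.2 (SOX2-OFF) and 10.6 (CEpiLC), and the lists covered 102, 124 and 93.7 Mb. Read totals were not used here, so depth is unknown, and strength was compared as a percentile by −log10 p within a list, where 100 is the strongest peak. Fold enrichment is the pileup of reads over the local background of the same library. A missing peak means that none was detectable at the depth of that library, and it does not show closed chromatin. SOX2-ON and SOX2-OFF carry 32.9% and 33.1% of their peaks on chromosomes 6, 8 and 11 against 26.3% in CEpiLC, and none of the 8 genes lies on those chromosomes. Of 7 marker genes of pluripotent, epiblast and caudal cells (Pou5f1, Sox2, Fgf5, Otx2, T, Cdx2 and Nkx1-2), all had a region within 1 kb of a start in each list, as did 75.3% to 76.5% of coding genes. An accessible start does not measure expression.

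Most of the accessible chromatin around the 8 genes was shared. Of the 119 regions, 64 were covered by all 3 lists (53.8%, Wilson 95% interval 44.8% to 62.5%), against 27.0% of all regions and 33.5% of the regions in windows of all coding genes off chromosomes 6, 8 and 11. The other 55 regions were split between 31 covered by 1 list and 24 covered by 2. SOX2-ON alone covered 13 (10.9%, against 16.9% of all regions), CEpiLC alone 12 (10.1%, against 20.3%) and SOX2-OFF alone 6 (5.04%, against 15.1%). With all lists held to a −log10 q of at least 2, the share in CEpiLC alone was 3.37%. The share over all regions at this cut is not given. Fewer peaks of the whole list pass it in CEpiLC (53.4%) than in SOX2-ON (65.1%) and SOX2-OFF (64.6%). SOX2-OFF and CEpiLC together covered 11 that SOX2-ON lacked (9.24%, against 6.92%), SOX2-ON and SOX2-OFF together covered 8 (6.72%, against 10.5%), and SOX2-ON and CEpiLC together covered 5 (4.202%, against 3.28%). The intervals of these 3 shares include their backgrounds, and so does the interval of SOX2-ON alone (6.50% to 17.8%). These unshared regions were mostly weak, since 35 of the 55 lay below the 50th percentile in every list that held them. Intervals cover counting error only.

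**Figure D1:**
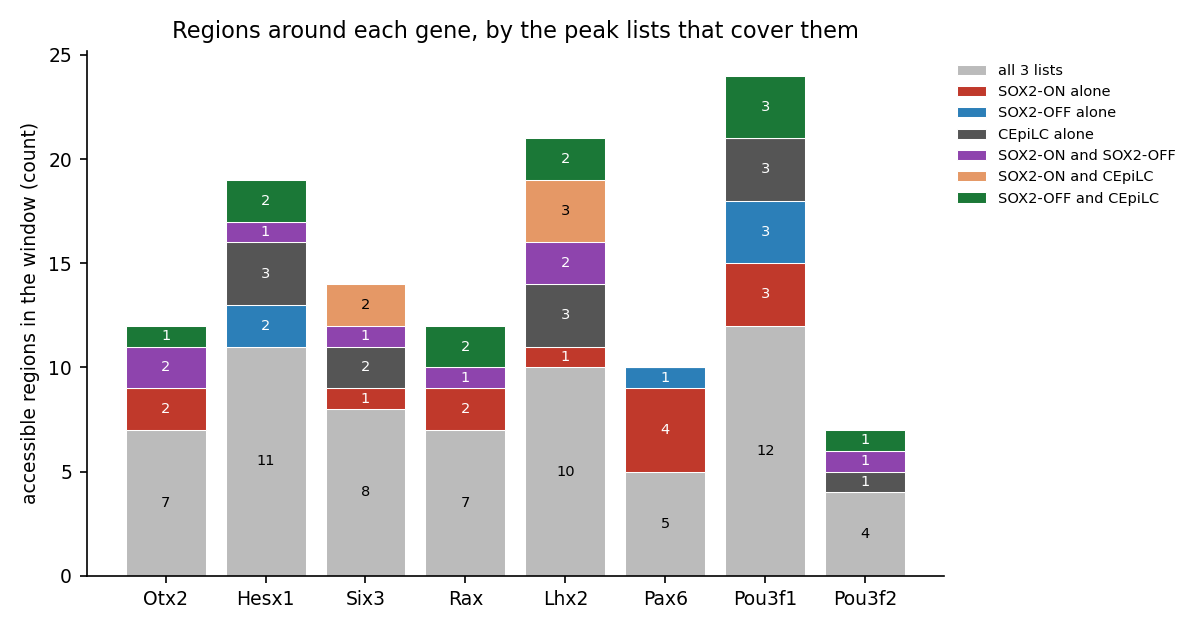
Stacked bars count the accessible regions in the window of each gene (y axis), coloured by the peak lists that cover them. Shared regions are the largest block in every bar, from 4 of 7 at Pou3f2 to 12 of 24 at Pou3f1, and Pax6 has 4 regions in SOX2-ON alone and none in CEpiLC alone.

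Single peaks were then followed from list to list. A peak was counted as lacking in another list when less than 10% of its length was covered there. In SOX2-ON, 19 of 94 peaks were lacking in SOX2-OFF (20.2%, 13.3% to 29.4%), where the share over the whole list was 35.0%. Against CEpiLC, 23 of the 94 were lacking (24.5%, 16.9% to 34.0%), and 48.8% over the whole list.

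In the opposite direction, 18 of 89 SOX2-OFF peaks were lacking in SOX2-ON (20.2%, 13.2% to 29.7%), with 38.0% over the whole list. Against CEpiLC, 15 of the 89 were lacking (16.9%, 10.5% to 26.0%), with 44.3% over the whole list. CEpiLC had 26 of 96 peaks lacking in SOX2-ON (27.1%, 19.2% to 36.7%), with 48.4% over the whole list, and 18 lacking in SOX2-OFF (18.8%, 12.2% to 27.7%), with 40.9% over the whole list. At a −log10 q of at least 2 in every list these CEpiLC shares were 11.8% and 7.35%, against 34.3% and 25.4% over the whole list. All of these member shares lay below the whole-list share. They also lay below the shares in windows of all coding genes off chromosomes 6, 8 and 11, which ran from 32.6% to 44.1%. Peaks in the member windows were also stronger than the lists as a whole, with a median percentile of 70.7 (SOX2-ON), 75.7 (SOX2-OFF) and 73.0 (CEpiLC), and the part of strength in these shares was not tested. Other anterior neural genes off chromosomes 6, 8 and 11 had low shares too. There, 19.9% and 21.1% of SOX2-ON peaks were lacking in SOX2-OFF and CEpiLC. For SOX2-OFF peaks it was 22.6% in SOX2-ON and 17.1% in CEpiLC. For CEpiLC peaks it was 33.5% in SOX2-ON and 27.2% in SOX2-OFF. Low shares were thus not particular to the 8 genes.

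Among strong peaks, defined as the strongest 20000 of a list, the windows held 19 (SOX2-ON), 20 (SOX2-OFF) and 24 (CEpiLC). A single one of the 19 was lacking in each of the other lists (5.26%), against 5.04% and 8.58% of the strong SOX2-ON peaks of the whole list. It lies just upstream of Rax. A single one of the 20 in SOX2-OFF (5.00%) and of the 24 in CEpiLC (4.17%) was lacking in SOX2-ON, against 1.30% and 1.42% over the whole lists, and both belong to the same region of the Hesx1 window. None of the 20 SOX2-OFF peaks was lacking in CEpiLC, which allows a share of up to 15%, against 1.06% over the whole list. None of the 24 CEpiLC peaks was lacking in SOX2-OFF, which allows up to 12.5%, against 0.620% over the whole list. Counts of 0 or 1 among about 20 peaks are too few to set apart from these backgrounds.

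**Figure D2:**
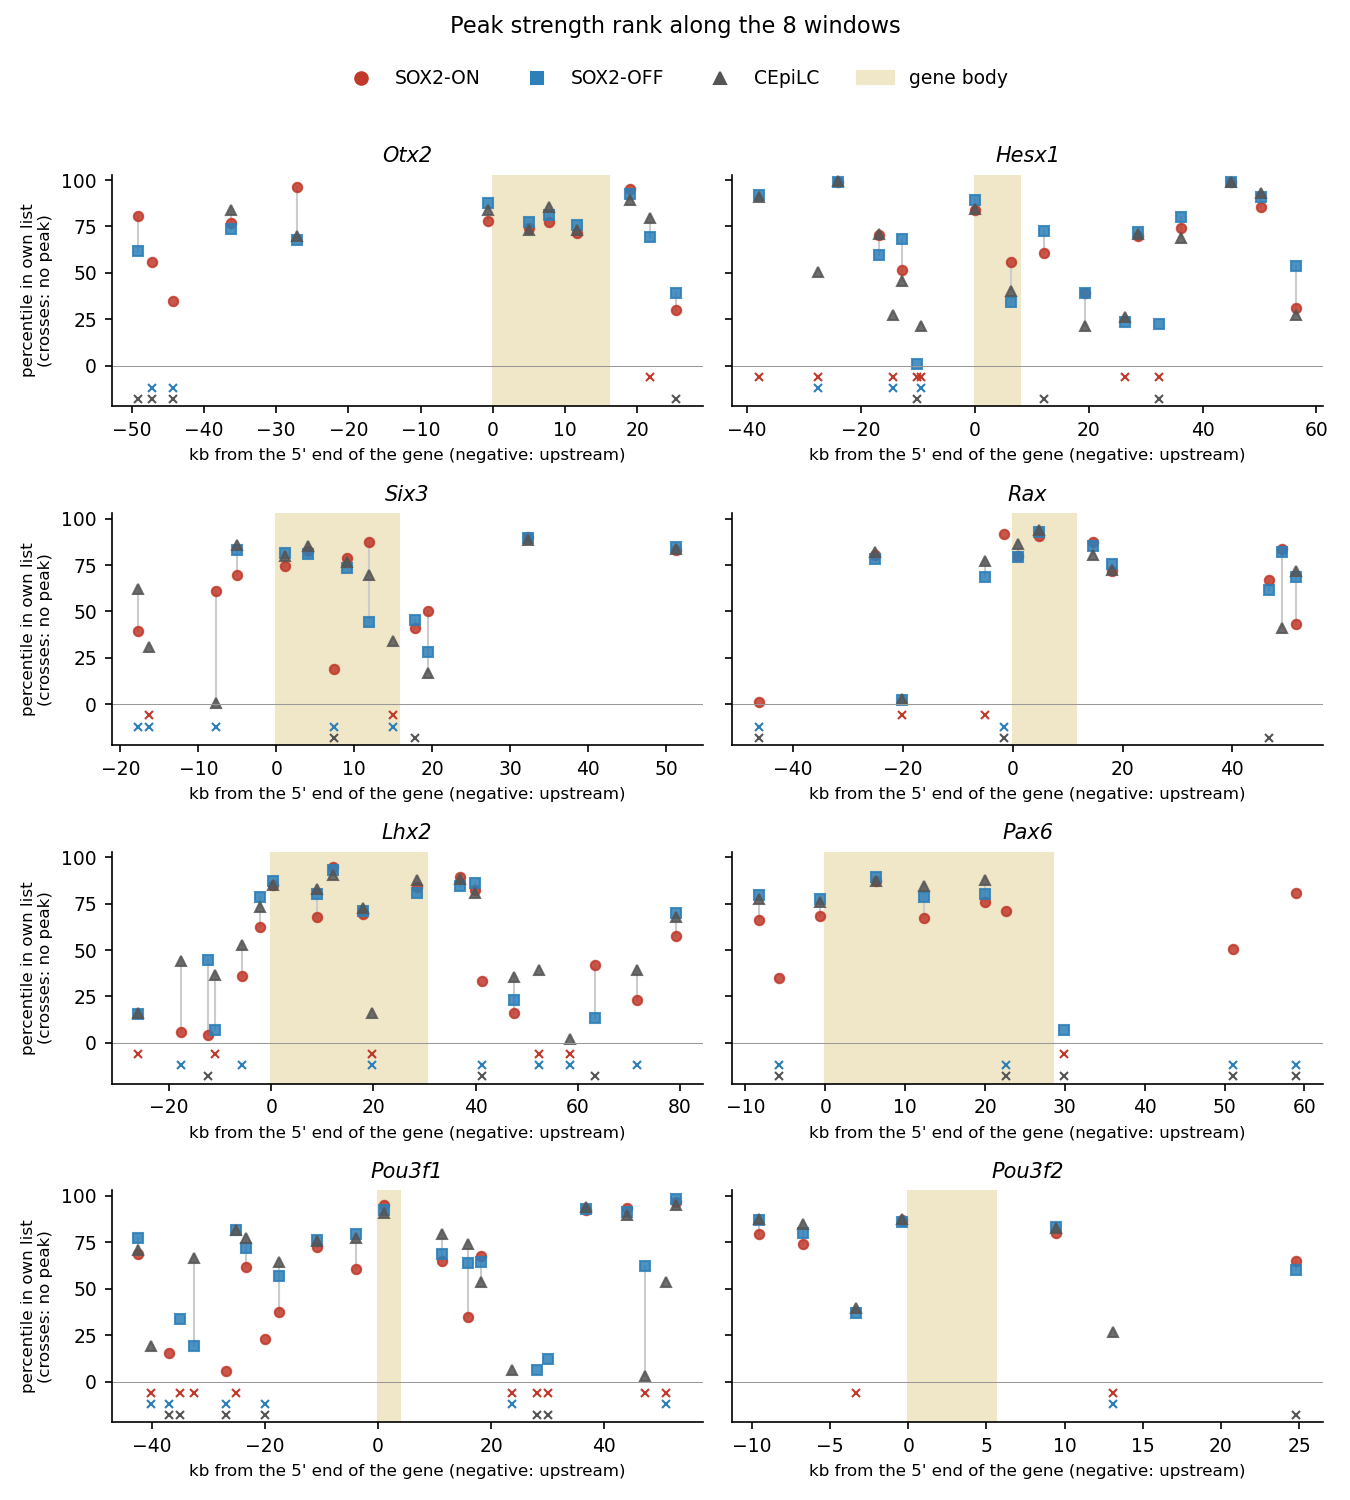
Each panel is the window of a gene, with the middle of each region in kb from the 5′ end of the gene (x axis) and its percentile in each list (y axis). Circles are SOX2-ON, squares SOX2-OFF and triangles CEpiLC, crosses below 0 mark lists without a peak, and shading is the gene body. Most regions near the gene bodies have all 3 symbols close together, and the circle upstream of Otx2 at 96.4 and the lone circle upstream of Rax at 92.0 stand apart.

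Otx2 (ENSMUSG00000021848.16, minus strand of chromosome 14, 48657677 to 48673819) had 12 regions, of which 7 were in all 3 lists. Around the gene itself the regions were in every list, though their ranks differed. The region at the 5′ end (chr14:48673550-48675452), over the first exon and the start of the antisense transcript Otx2os1, lay at percentile 78.1 in SOX2-ON, against 87.9 in SOX2-OFF and 84.0 in CEpiLC. The 3 further regions over internal starts were also in every list.

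The strongest region of the Otx2 window in SOX2-ON lay 26.1 kb upstream, within Otx2os1 (chr14:48699966-48701974), and contains the second sequence printed above. Its percentile was 96.4 (SOX2-ON), 67.9 (SOX2-OFF) and 69.7 (CEpiLC). The fold enrichment was 4.91 (SOX2-ON), 1.84 (SOX2-OFF) and 1.90 (CEpiLC). SOX2-ON alone was high, and SOX2-OFF and CEpiLC were close to each other. The SOX2-ON peak held 8 SOX words over its 1343 bp. Over the whole SOX2-ON list, where the median width was 621 bp, 59.8% of peaks held a SOX word somewhere in the peak. The count of words per peak over the list is not given, so the 8 words have no background. Farther out in Otx2os1, 48.7 kb upstream (chr14:48722563-48723258), a region stood at percentile 80.8 in SOX2-ON and 61.9 in SOX2-OFF and had no peak in CEpiLC. Another 2 weak regions there, at 34.8 and 56.1, were in SOX2-ON alone. Downstream, by contrast, a region 1.89 kb past the gene (chr14:48653688-48655788) was strong throughout, at 95.4, 92.3 and 89.4 in SOX2-ON, SOX2-OFF and CEpiLC.

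Hesx1 (ENSMUSG00000040726.10, plus strand of chromosome 14, 26994416 to 27002329) had 19 regions, 11 of them in all 3 lists and none in SOX2-ON alone. Its 5′ region (chr14:26993923-26994866) lay at 83.8 in SOX2-ON, against 89.4 in SOX2-OFF and 84.6 in CEpiLC. A weaker region at an internal start stood at 55.8 (SOX2-ON), 34.5 (SOX2-OFF) and 40.1 (CEpiLC). The region missing from SOX2-ON (chr14:26955681-26957300), whose centre is printed above, lies 37.1 kb upstream in an intron of the neighbouring gene Appl1. There the fold enrichment was 3.65 in SOX2-OFF and 3.02 in CEpiLC, at percentiles 92.0 and 91.0, and SOX2-ON had no peak at all. It was thus strong in both samples without doxycycline, SOX2-OFF and the wild type, and missing where doxycycline was kept. Outside its central stretch the SOX2-OFF peak held 5 SOX words over 1606 bp. The starts of the neighbours Appl1 and Il17rd, in the same window, ranked between 98.7 and 99.3 in every list. Another pair of Hesx1 regions ranked highest in SOX2-OFF. A region 12.4 kb upstream (chr14:26981132-26982024) stood at 51.4 (SOX2-ON), 68.0 (SOX2-OFF) and 45.4 (CEpiLC), and one in Il17rd (chr14:27050317-27051455) at 30.8, 53.9 and 27.4. A region 16.1 kb upstream (chr14:26976889-26978280) was instead lowest in SOX2-OFF, at 70.1, 59.7 and 70.8.

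Six3 (ENSMUSG00000038805.10, plus strand of chromosome 17, 85613608 to 85629302) had 14 regions, 8 of them in all lists. The region near its 5′ end (chr17:85614141-85615404) lay at 74.4 in SOX2-ON, against 81.6 in SOX2-OFF and 80.1 in CEpiLC. Another over another start and a coding exon (chr17:85621535-85623960) lay at 79.0, 73.6 and 76.8, and it was 618 bp wide in SOX2-ON against 2378 bp in SOX2-OFF and 2383 bp in CEpiLC. A neighbouring fragment of 657 bp (chr17:85620749-85621405) appeared in SOX2-ON alone at percentile 18.9. The largest difference between SOX2-ON and SOX2-OFF in the whole set of shared regions lay in the 3′ part of the gene over a UTR exon of an annotated transcript (chr17:85624974-85626107). Its percentile was 87.3 (SOX2-ON), 44.2 (SOX2-OFF) and 69.5 (CEpiLC). Its fold enrichment was 2.71, 1.42 and 1.68. The wild-type sample therefore lay between those of the engineered line. A weak region 3.03 kb downstream (chr17:85632334-85633878) was ordered differently, at 50.1 (SOX2-ON), 27.9 (SOX2-OFF) and 16.7 (CEpiLC). The SOX2-ON peaks of both these regions held no SOX word over their whole length. A region 15.8 kb downstream (chr17:85645090-85646649) was equally strong in all, at 90.3, 89.8 and 88.5.

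Lhx2 (ENSMUSG00000000247.11, plus strand of chromosome 2, 38339281 to 38369733) encodes a LIM-homeodomain factor and had 21 regions, of which 10 were in all 3 lists. Its 5′ region (chr2:38338526-38340766) lay at 85.2 in SOX2-ON, against 87.4 in SOX2-OFF and 85.1 in CEpiLC. That region was 917 bp wide in SOX2-ON, 1685 bp in SOX2-OFF and 2241 bp in CEpiLC. The strongest region of the window, over an internal start and coding exon (chr2:38350456-38352302), lay at 94.9, 93.0 and 90.6. No shared region of Lhx2 differed by 20 percentile points in any pair. The unshared ones were scattered over the flanks, with 1 in SOX2-ON alone and 3 in CEpiLC alone, and the highest percentile among them was 53.0. A region 16.4 kb downstream (chr2:38386106-38387670) stood higher in CEpiLC than in SOX2-OFF, at 35.2 against 23.0, and among the 64 shared regions of the 8 genes this excess was exceeded by the Six3 region over the UTR exon alone.

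Pax6 (ENSMUSG00000027168.21, plus strand of chromosome 2, 105668900 to 105697364), the paired-box factor of eye and forebrain, had 10 regions, the fewest after Pou3f2. The 5 shared regions all lay in or just upstream of the gene and were wide. The one over the 5′ end (chr2:105666372-105670164) covered 3167 bp (SOX2-ON), 3685 bp (SOX2-OFF) and 3793 bp (CEpiLC), and stood at only 68.1, 77.5 and 76.1. The strongest (chr2:105673674-105676806), over another start, lay at 87.2, 89.2 and 87.3. All 5 ranked lower in SOX2-ON than in both other lists, with a median difference of −9.36 percentile points against SOX2-OFF and −11.2 against CEpiLC. Of all 59287 shared regions, 37588 ranked lower in SOX2-ON than in SOX2-OFF, and 34704 lower than in CEpiLC. The strongest Pax6 region differed from CEpiLC by only −0.15. Ranked by fold enrichment it was higher in SOX2-ON, at 82.5 against 81.0. In the same window, 4 regions were in SOX2-ON alone and none was in CEpiLC alone. The strongest of these (chr2:105727453-105728318) lay in an intron of Elp4, 30.1 kb downstream, at percentile 80.9 with a fold enrichment of 2.65. Introns of Elp4 are known to hold distant enhancers of Pax6. Another 1 of the 4 lay over a coding exon and internal start (chr2:105691339-105691619, percentile 71.3), and the last 2 were at 50.9 and 34.9.

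Pou3f1 (ENSMUSG00000090125.3, plus strand of chromosome 4, 124656807 to 124660655) had the most regions, 24, of which 12 were in all lists. The region over its single start (chr4:124656739-124658927) was one of the strongest member starts, at 94.996 (SOX2-ON), 92.3 (SOX2-OFF) and 90.8 (CEpiLC). Upstream, within the noncoding gene Gm2164, a narrow region 24.7 kb from Pou3f1 (chr4:124631521-124632077) was at 81.8 in both SOX2-OFF and CEpiLC and had no peak in SOX2-ON. A region in the same noncoding gene (chr4:124638485-124640173) rose in rank from 37.7 in SOX2-ON to 56.8 in SOX2-OFF and 64.5 in CEpiLC. Downstream, 11.3 kb past the gene (chr4:124671973-124673421), the percentile was 34.7 in SOX2-ON, against 63.6 in SOX2-OFF and 74.4 in CEpiLC, and the fold enrichment was 1.51, 1.57 and 1.73. These 3 regions were low or missing in SOX2-ON, and others in the window went the other way. Within Gm2164, 3 weak regions were in SOX2-ON alone, at 15.6, 5.41 and 22.8. A region 13.5 kb downstream (chr4:124674196-124675864) was highest in SOX2-ON, at 67.5 (SOX2-ON), 64.3 (SOX2-OFF) and 53.5 (CEpiLC). The starts of Utp11 and Fhl3 in this window were between 89.6 and 94.1 in every list.

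Pou3f2 (ENSMUSG00000095139.2, minus strand of chromosome 4, 22482780 to 22488366) had the fewest regions, 7, and none in SOX2-ON alone. Its start was covered by a region (chr4:22486944-22490639) of 3627 bp (SOX2-ON), 3689 bp (SOX2-OFF) and 3663 bp (CEpiLC), at percentiles 87.3, 85.7 and 87.8. A region 2.02 kb downstream (chr4:22477053-22480757) was of similar breadth in SOX2-OFF, 3705 bp, and lay at 80.3, 83.3 and 82.9. The 4 shared regions differed by less than 20 points in every pair.

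Rax (ENSMUSG00000024518.4, minus strand of chromosome 18, 65928277 to 65939787), the retinal homeobox gene, had 12 regions, 7 of them in all lists. The region at its 5′ end (chr18:65938018-65939540) lay at 80.1 (SOX2-ON), 79.5 (SOX2-OFF) and 86.3 (CEpiLC). In the gene body (chr18:65934291-65935705) the percentiles were 90.6, 93.0 and 93.8. Next to these shared regions, 1061 bp upstream of the gene, lay the strong peak found in SOX2-ON alone (chr18:65940848-65941853). It was 1006 bp wide with a fold enrichment of 3.47 and stood at percentile 92.0, higher than the region at the start itself, and no peak of SOX2-OFF or CEpiLC touched it. Its central 200 bp held 3 SOX words. Over the whole SOX2-ON list, 27.1% of peaks held a SOX word in that stretch, and the count of words per peak is not given. Next to this peak, 4.83 kb upstream, a narrow region had the opposite pattern, at 68.8 in SOX2-OFF and 77.4 in CEpiLC with no peak in SOX2-ON. Downstream, in a noncoding gene 37.3 kb away (chr18:65890452-65890968), the engineered line stood together at 83.9 and 82.1 against 41.2 in CEpiLC. The SOX2-ON peak there held no SOX word over its whole length. In the adjoining region (chr18:65887504-65888755) SOX2-ON was lowest at 43.0, with 68.8 in SOX2-OFF and 72.0 in CEpiLC.

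Over the 64 shared regions the ranks moved little. SOX2-ON minus SOX2-OFF had a median of −2.69 percentile points, against −1.82 over all 59287 regions in all 3 lists. SOX2-ON minus CEpiLC had a median of −1.50 against −1.59, and SOX2-OFF minus CEpiLC 0.52 against 0.31. These medians depended on the ranking. Among the regions that all lists cover, the first came to −0.089 and the second turned to 1.14, and with chromosomes 6, 8 and 11 left out the third turned to −1.29. A difference of at least 20 percentile points in any pair was seen at 10 of the 64 regions, and 54 had none. The same count over all 59287 regions is not given, so these numbers have no background. Ranked only among regions of all 3 lists, some of these differences fell below 20 points. SOX2-ON minus SOX2-OFF was then −17.6 (Pou3f1 downstream), −18.8 (adjoining Rax region), −9.86 (Hesx1 region in Il17rd) and 18.8 (weak Six3 region). SOX2-OFF minus CEpiLC was 19.3 and 12.9 at the Hesx1 pair highest in SOX2-OFF. The Otx2 region 26.1 kb upstream and the Six3 region over the UTR exon stayed above 20, at 54.1 and 58.5.

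Counted by pair and direction, 4 of the 64 were higher in SOX2-ON than in SOX2-OFF by at least 20 points, where 6.31% of all shared regions were, and 3 were higher in SOX2-OFF, where 13.6% were. Between SOX2-ON and CEpiLC, 3 were higher in SOX2-ON (10.1% of all shared regions) and 3 in CEpiLC (15.1%). Between SOX2-OFF and CEpiLC, 3 were higher in SOX2-OFF (10.7%) and 1 in CEpiLC (7.42%). The member shares were 6.25%, 4.69%, 4.69%, 4.69%, 4.69% and 1.56% in that order, and counts of 1 to 4 are too few to set apart from the backgrounds, the first being equal to its own. Shared member regions also ranked higher than all shared regions, with median percentiles of 76.5 (SOX2-ON), 79.8 (SOX2-OFF) and 80.7 (CEpiLC) against 70.9, 75.7 and 75.4, and the part of rank was not tested. The comparisons share samples, so a region that stands apart in SOX2-ON is counted against both other lists. That was so for the Otx2 region 26.1 kb upstream, the weak Six3 region downstream, the Pou3f1 region downstream and the adjoining Rax region.

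**Figure D3:**
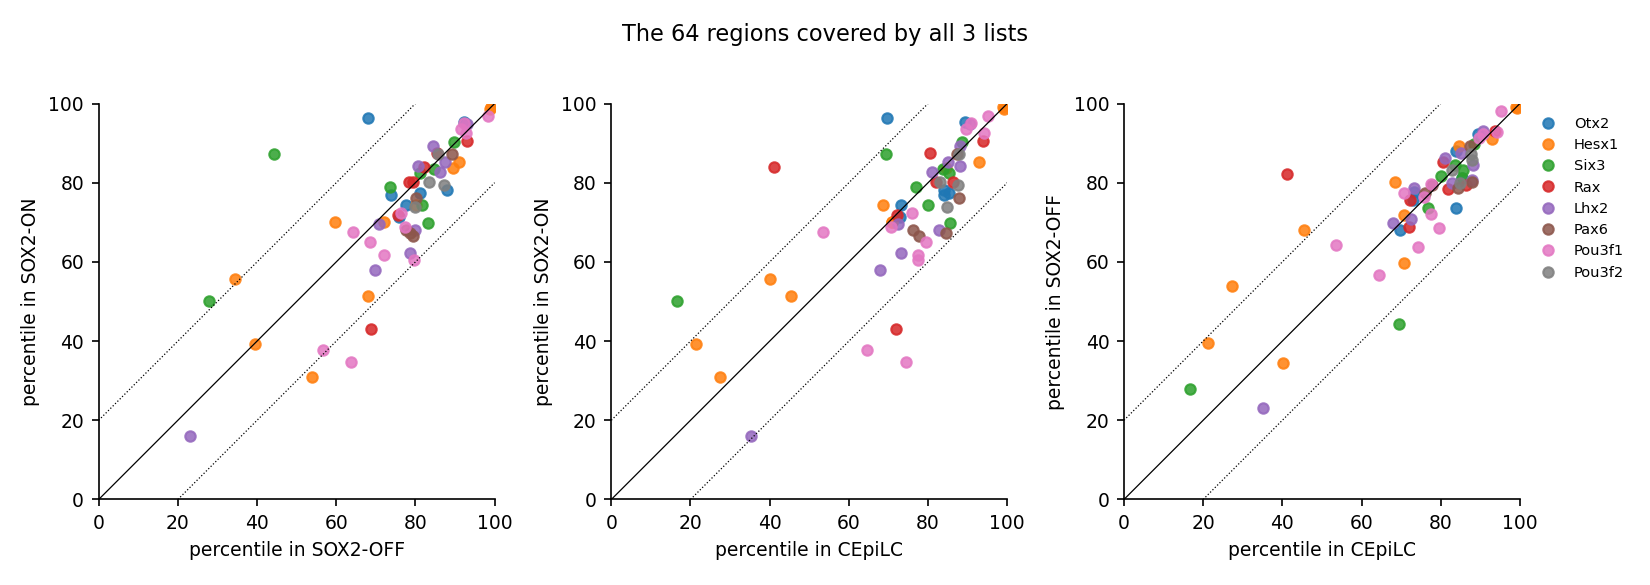
Each point is a region covered by all 3 lists, placed by its percentile in 1 list (x axis) and in another (y axis) and coloured by gene. The solid line is equality and the dotted lines mark differences of 20 points. Most points lie close to the solid line, and the Otx2 point at 96.4 in SOX2-ON and the Six3 point at 87.3 lie far above it in the panel against SOX2-OFF.

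The starts of the 8 genes were mostly shared. Of 18 regions within 1 kb of a start of the 8 genes, 16 were in all lists, and the other 2 were weak or narrow regions of Six3 and Pax6 in SOX2-ON alone. The same share for starts of all coding genes is not given here, so this sharing cannot be called particular to the 8 genes. Away from member starts, 48 of 101 regions were in all lists. All 8 genes had a start region in every list. Taking for each gene its strongest start region, the member median was percentile 85.5 in SOX2-ON, against 88.5 in SOX2-OFF and 86.8 in CEpiLC. The medians of all coding genes with such a region were 93.7, 93.8 and 93.4. Lhx2 and Pou3f1 were above the coding median in SOX2-ON, and all 8 genes were below it in SOX2-OFF and CEpiLC. Within coding genes the members ranged from percentile 14.2 to 58.5 in SOX2-ON, 13.5 to 45.1 in SOX2-OFF and 14.8 to 36.0 in CEpiLC.

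These starts were also often wide. The median width was 1783 bp (SOX2-ON), 1660 bp (SOX2-OFF) and 1856 bp (CEpiLC), against 1327, 1427 and 1375 bp for coding genes. Above the coding median were 5, 5 and 6 of the 8 genes. Pou3f2 and Pax6 were widest, and Hesx1 and Six3 were narrower than the coding median in every list. The same held for a list of 21 other genes of anterior and neural development, among them Six6, Emx2, Sox1 and Zic1. Their strongest start regions lay below the coding median in 19, 20 and 20 of 21 genes and were wider in 17, 19 and 18. The strongest start region was picked in each list separately and could differ between lists. For Six3 it was the 618 bp region over another start in SOX2-ON, and the region near the 5′ end in SOX2-OFF and CEpiLC. The former was 2378 bp wide in SOX2-OFF and 2383 bp in CEpiLC. For Otx2 the region picked in CEpiLC differed from that in the other lists.

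**Figure D4:**
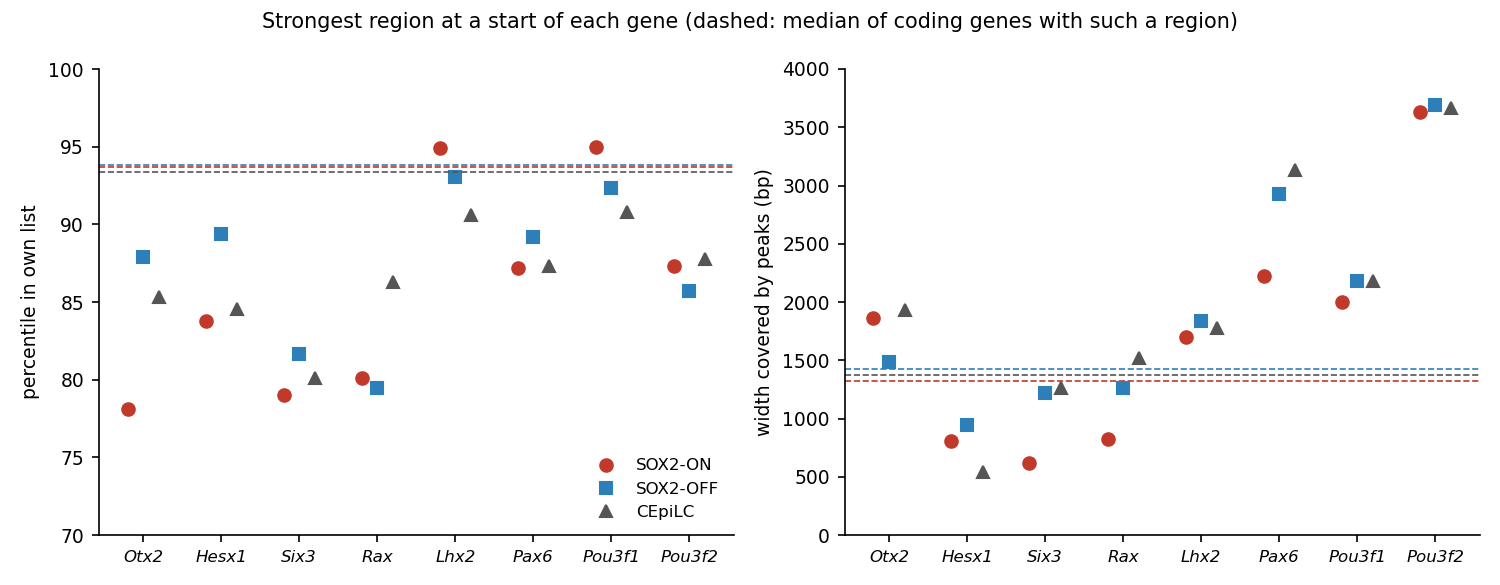
The left panel gives the percentile of the strongest start region of each gene in its own list, on an axis from 70 to 100, and the right panel its width in bp. The strongest start region was picked in each list separately. Dashed lines are medians over coding genes with a start region. Most symbols on the left lie below the dashed lines, and Pou3f2, near 3600 bp on the right, lies well above them.

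Peaks in the windows were wider than the lists as a whole. The median peak width was 1007 bp (SOX2-ON), 1073 bp (SOX2-OFF) and 842 bp (CEpiLC), against 621, 741 and 526 bp over the whole lists. In the 64 shared regions the median width covered was 1177, 1304 and 1220 bp, against 1006, 1159 and 902 bp over all shared regions. Regions of 1 list alone were narrower, with medians of 457 bp in SOX2-ON, against 440 bp in SOX2-OFF and 268 bp in CEpiLC. SOX2-OFF was widest over all window peaks and in the shared regions, as it was over the whole lists. CEpiLC was narrowest over all window peaks but not by width covered in the shared regions. By median width of single peaks there, SOX2-ON and CEpiLC were nearly equal, at 1139 and 1138 bp.

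The 21 other anterior genes were compared as a list, described by counts. Of their 304 regions, 136 were in all lists (44.7%, 39.2% to 50.4%), against 27.0% of all regions. SOX2-ON alone covered 37 (12.2%, against 16.9% of all regions), CEpiLC alone 67 (22.0%, against 20.3%) and SOX2-OFF alone 21 (6.91%, against 15.1%). Of the 67, 15 lay around Otx1 on chromosome 11. Without chromosomes 6, 8 and 11, CEpiLC alone covered 48 of 244 (19.7%, against 19.8%). No strong SOX2-ON peak of the 42 in their windows was lacking in either other list, which allows a share of up to 7.14%. Over the whole list 5.04% were lacking in SOX2-OFF and 8.58% in CEpiLC. The single strong peak lacking anywhere was a SOX2-OFF peak in the Zic2 window without a CEpiLC counterpart, 1 of 48, against 1.06% over the whole list. In naive pluripotency windows (10 genes, such as Klf2 and Esrrb), 77 of 235 regions were in all lists (32.8%, against 27.0% of all regions). There, 6 of 28 strong SOX2-ON peaks were lacking in CEpiLC, against 8.58% over the whole list. Without chromosomes 6, 8 and 11 these were 3 of 16 (6.59% to 43.0%), an interval that includes the 8.38% of the whole list off those chromosomes. In caudal windows (12 genes, such as T and Cdx2), 108 of 226 regions were in all lists (47.8%, against 27.0% of all regions). None of 31 strong SOX2-ON peaks was lacking in CEpiLC (up to 9.68%), against 8.58% over the whole list. Lacking in SOX2-ON were 2 of 44 strong SOX2-OFF peaks (1.26% to 15.1%), an interval that includes the 1.30% of the whole list.

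SOX words in the central 200 bp were found in 28 of 94 member peaks in SOX2-ON (29.8%, 21.5% to 39.7%), 19 of 89 in SOX2-OFF (21.3%, 14.1% to 31.0%) and 29 of 96 in CEpiLC (30.2%, 21.9% to 40.0%). The whole lists held them in 27.1%, 23.4% and 22.0%, each within the interval of the member share, in CEpiLC near its lower bound. The POU octamer ATGCAAAT was in 2 SOX2-ON peaks, and in none of SOX2-OFF or CEpiLC, which allows up to 3.37% and 3.13%, against 1.44%, 1.35% and 1.08% over the whole lists. The TCF/LEF word TCAAAG, which differs from ACAAAG in a single letter, was in 10.6%, 7.87% and 13.5% of the member peaks, against 13.4%, 13.5% and 12.8% over the whole lists. OTX (TAATCC), CDX (CCATAAA or CAATAAA) and T-box (AGGTGTG) words were each in 2.08% to 9.38% of them, from 2 to 9 peaks, against 4.63% to 5.88% over the whole lists. All words were searched on both strands, and a match is not a bound site.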

How the data were processed

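Per the labels and the methods, ATAC-seq was made from 50000 cells per sample, and broad peaks were called by the authors for each sample with MACS2 in the nf-core/atacseq pipeline on mm10, with no control library stated. For every peak the authors deposited a fold enrichment (a ratio to the local background), a −log10 p, a −log10 q and a score of 10 times the −log10 q. The deposited score was not used. The −log10 p and −log10 q depend on depth, and broad calling joins neighbouring sites, so edges and widths are approximate.

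Peaks were ranked by −log10 p within a list. Peaks of the 3 lists that overlapped or touched were joined into regions, each list being represented by its strongest peak and the summed width of its peaks. Starts, exons and genes were those of GENCODE M21, sequence that of GRCm38, and a start region lay within 1 kb of a start. Regions named in the text were those at member starts, those with a peak among the strongest 20000 of a list that another list lacked, and for each pair the 3 shared regions with the largest rank difference in each direction. Other regions were named after their values were seen. The code was tested on simulated lists and used Python 3.11.15 with pandas 2.3.3, numpy 2.4.6 and scipy 1.17.1. No test between groups was made with 1 sample in each. The genes, lists and comparisons were chosen with earlier results of these data known, and the genes follow themes of the study.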

Additional observations from a re-analysis of the deposited data

How the results depend on the processing

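No paired analysis was possible because there was 1 sample a group. Windows of 20 or 100 kb moved no share of lacking peaks or of regions out of its Wilson interval, nor did leaving out each gene for the shares of lacking peaks. Without each gene in turn, the median rank differences ran from −3.41 to −2.18 (SOX2-ON minus SOX2-OFF), −2.83 to −0.75 (SOX2-ON minus CEpiLC) and 0.30 to 1.04 (SOX2-OFF minus CEpiLC) percentile points. Ranks by fold enrichment gave −1.58, −1.78 and 0.33, and ranks off chromosomes 6, 8 and 11 gave −3.11, −3.80 and −1.29, the last turned in sign. Among the strongest 20000 peaks, lacking shares fell to 5.26% (SOX2-ON in SOX2-OFF), 5.26% (SOX2-ON in CEpiLC), 5% (SOX2-OFF in SOX2-ON), 0% (SOX2-OFF in CEpiLC), 4.17% (CEpiLC in SOX2-ON) and 0% (CEpiLC in SOX2-OFF), from 19 to 24 peaks each. With 50% coverage required, SOX2-OFF peaks lacking in CEpiLC came to 27.0% (57.6% over the whole list) and CEpiLC peaks lacking in SOX2-ON to 37.5% (55.8%). With −log10 q of at least 2 in both lists, CEpiLC peaks lacking in SOX2-ON fell to 11.8% (34.3% over the whole list) and those lacking in SOX2-OFF to 7.35% (25.4%). At the same cut, regions in all 3 lists came to 62.9% and those in CEpiLC alone to 3.37%, and the shares over all regions are not given. Ranked only among regions of all 3 lists, the median rank differences were, in the same order, −0.089, 1.14 (turned) and 0.50. The cause was not tested. In shared regions the median peak width was 1139 bp in SOX2-ON, 1304 bp in SOX2-OFF and 1138 bp in CEpiLC. Over whole peaks, by construction longer stretches, the words were found in SOX2-ON, SOX2-OFF and CEpiLC in 64.9%, 68.5% and 62.5% (SOX), 45.7%, 52.8% and 50% (TCF/LEF), 27.7%, 36.0% and 26.0% (OTX), 19.1%, 28.1% and 18.8% (CDX) and 21.3%, 17.98% and 20.8% (T-box) and 6.38%, 5.62% and 3.13% (POU octamer) of member peaks. Over the whole lists these were 59.8%, 61.4% and 50.6% (SOX), 38.3%, 43.8% and 34.9% (TCF/LEF), 19.5%, 23.8% and 17.4% (OTX), 16.1%, 19.9% and 14.6% (CDX), 17.6%, 20.9% and 16.2% (T-box) and 4.58%, 5.32% and 3.55% (POU octamer). Backgrounds off chromosomes 6, 8 and 11 and ranks among coding genes were added after seeing the data. Absent peaks are limited by depth, which is unknown, and no value has a replicate.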
